A study of Homo sapiens with 17 samples.

Results

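The genes described here are 7 noncoding transcripts that host small nucleolar RNAs (snoRNAs), in introns or, for SNHG7 in this table, within annotated exons: GAS5, SNHG1, SNHG5, SNHG6, SNHG7, SNHG8 and SNHG12. They were chosen by name among the 23368 genes of a count table, and all 7 passed the low-count filter of every fit. The table holds 17 libraries of acRIP-seq, in which polyadenylated RNA from HEK293T, an embryonic kidney cell line carrying the SV40 large T antigen, was pulled down with an antibody against N4-acetylcytidine (ac4C), a modified cytidine. For each condition there were input libraries (RNA before pull-down), IP libraries (the anti-ac4C pull-down) and IgG libraries (a pull-down with a control antibody). The WT condition had 3 input, 3 IP and 2 IgG libraries, and the siTDP43 condition had 3 of each. The siTDP43 cells, given the genotype siTARDBP, were transfected with siRNA against TARDBP, the gene of the RNA-binding protein TDP43. The knockdown was transient. The WT cells carry no treatment label and no control siRNA is named for them, so transfection, batch and loss of TDP43 cannot be told apart in any comparison of the conditions. No label states that replicates came from separate cultures, so the p-values measure the spread between these libraries, which may be technical.

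In hg19 (GRCh37) coordinates the count table placed GAS5 on chromosome 1 from 173833039 to 173837125 (minus strand, 12 merged exons, 632 exonic bases). SNHG12 lies on the same chromosome from 28905050 to 28908366 (minus strand, 6 exons, 739 bases). SNHG1 runs from 62619460 to 62623360 on chromosome 11 (minus strand, 11 exons, 1118 bases), and SNHG5 from 86386725 to 86388451 on chromosome 6 (minus strand, 6 exons, 507 bases). SNHG6 lies on chromosome 8 from 67834165 to 67837777 (minus strand, 4 exons, 472 bases). SNHG7 lies on chromosome 9 from 139619046 to 139622636 (minus strand, 3 merged exons, 2676 bases). SNHG8 is the only 1 of the 7 on the plus strand, on chromosome 4 from 119199917 to 119200978 (3 exons, 619 bases). All 7 were shorter than the median of 3088 exonic bases over the 14036 genes tested in the inputs. The GC content of the exons was 41.4% in SNHG5, 42.2% in SNHG6, 43.9% in SNHG1, 45.7% in GAS5 and 48.9% in SNHG8, against a median of 49.1%, and SNHG12 (54.1%) and SNHG7 (56.5%) were above that median.

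snoRNA host genes are spliced like other genes, but the stable products of several of them are the snoRNAs released from the excised introns, which guide the modification of ribosomal and spliceosomal RNA. The spliced exons of GAS5, SNHG1 and their like hold only short reading frames, are read by ribosomes and are then degraded by nonsense-mediated decay. Several of these genes start with a 5′ terminal oligopyrimidine (TOP) tract, the element that ties their translation and turnover to growth conditions. SNHG5, SNHG6, SNHG7, SNHG8 and SNHG12 have been studied as long noncoding RNAs in cell growth, and GAS5 takes its name from its accumulation in growth-arrested cells.

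The start of each gene is shown because the TOP tract sits there. Each line gives 10 bases before and 30 bases from the 5′ end in the count table, read 5′ to 3′ on the gene's strand, with the unbroken run of C and T from that end in capitals:
GAS5, chr1:173837096-173837135 (minus): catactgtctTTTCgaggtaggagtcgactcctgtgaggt
SNHG1, chr11:62623331-62623370 (minus): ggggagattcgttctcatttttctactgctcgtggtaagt
SNHG5, chr6:86388422-86388461 (minus): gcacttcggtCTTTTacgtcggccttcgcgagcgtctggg
SNHG7, chr9:139622607-139622646 (minus): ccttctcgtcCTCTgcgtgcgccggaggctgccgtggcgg
SNHG8, chr4:119199907-119199946 (plus): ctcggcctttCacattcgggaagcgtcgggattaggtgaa
SNHG12, chr1:28908337-28908376 (minus): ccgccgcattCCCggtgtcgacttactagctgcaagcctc
A C at the first base followed by a run of at least 4 pyrimidines in all was found in 3 of the 7 members (SNHG5, SNHG6 and SNHG7, of which SNHG6 is not printed) and in 907 of the 21236 genes with 1 chromosome and strand (4.27%). These runs depend on the annotated end, and a start site shifted by a few bases would change them.

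The snoRNA rows of the table that lie inside the members are part of what is measured below. The following examples, from the introns of 3 hosts, are shown because their counts and those of their hosts moved differently. Capitals mark TGATGA (the usual letters of box C) and CTGA (box D) in the box C/D snoRNAs, and ACA in the box H/ACA snoRNA:
SNORD80 in GAS5, chr1:173833971-173834041 (minus): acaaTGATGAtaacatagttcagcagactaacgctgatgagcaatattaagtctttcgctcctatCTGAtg
SNORD44 in GAS5, chr1:173835106-173835166 (minus): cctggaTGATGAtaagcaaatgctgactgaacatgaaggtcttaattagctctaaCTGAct
SNORD25 in SNHG1, chr11:62623037-62623103 (minus): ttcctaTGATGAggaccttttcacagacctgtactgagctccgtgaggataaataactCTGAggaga
SNORA61 in SNHG12, chr1:28906276-28906405 (minus): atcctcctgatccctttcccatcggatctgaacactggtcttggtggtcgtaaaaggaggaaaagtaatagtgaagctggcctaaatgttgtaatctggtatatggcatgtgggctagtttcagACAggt
On the gene's strand, TGATGA was in the first 25 bases of 161 of the 231 SNORD rows of the table (69.7%), CTGA in the last 18 bases of 208 of them (90%), and ACA in the last 10 bases of 92 of 101 SNORA rows (91.1%).

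TARDBP was lower in all 3 libraries labelled siTDP43 input (98.7, 102 and 106 CPM, the counts relative to the scaled library total) than in the 3 WT inputs (150, 157 and 151 CPM), at 67.2% of the WT level after normalization. The inputs were the deepest, with 27718784 to 36583436 counts per library for WT and 24542434 to 31030950 for siTDP43. The IP libraries held 19615316 to 21066215 (WT) and 8610070 to 15736165 (siTDP43), and the IgG libraries 9022250 to 9466855 (WT) and 3013989 to 3436811 (siTDP43). Of 5 HEK293T markers, KRT8, KRT18, VIM and NEFM were present in every input and PAX2 was near 0 (0.0631 to 1.37 CPM), and the 4 markers of other cells (PTPRC, ALB, CD3E and COL1A2) were at or near 0, at most 0.171 CPM. All 4 HEK293T markers tested were lower in siTDP43 input (KRT8 188 to 201 CPM in WT and 37.4 to 42.3 CPM in siTDP43), and their part in the results was not tested. In bulk RNA, fewer cells that express a gene and less of its RNA per cell cannot be told apart.

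The 7 host genes took 0.353% to 0.361% of all counts in WT input and 0.0826% to 0.0897% in siTDP43 input, and their summed level was 3291 ± 21.2 CPM in the former and 839 ± 43.9 CPM in the latter (SD, n = 3 each). In the pull-downs the order of the conditions was the opposite: the sum was 1463 ± 36.1 CPM in WT IP (n = 3) and 2595 ± 55.0 CPM in siTDP43 IP (n = 3), and 1660 ± 0.700 CPM in WT IgG (n = 2) and 3230 ± 80.1 CPM in siTDP43 IgG (n = 3). These sums are levels and were not tested. SNHG1 made up 36.0% of the members' CPM in WT input and 10.7% in siTDP43 input, while SNHG5 made up 13.3% and 24.6%.

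Per kilobase of exon, the order of levels in WT input was GAS5 (2130 ± 51.2 CPM per kb), SNHG1 (1058 ± 10.6), SNHG5 (866 ± 18.3), SNHG8 (225 ± 3.97), SNHG6 (163 ± 2.79), SNHG12 (63.9 ± 0.369) and SNHG7 (22.1 ± 1.35), with SD over 3 libraries and no overlap between neighbours. In siTDP43 input SNHG1 stood below SNHG5, SNHG8 and SNHG6, at 79.9 ± 1.74 CPM per kb, and GAS5 remained first at 573 ± 11.8 CPM per kb. In siTDP43 IgG the order was led by SNHG5 (2534 ± 93.7 CPM per kb) and SNHG8 (1814 ± 24.1), and SNHG1, SNHG12 and SNHG7 at its lower end overlapped with their neighbours. GAS5 and SNHG8 overlapped in siTDP43 IP, as did SNHG12 and SNHG1, and in WT IgG GAS5 overlapped with SNHG1 and SNHG12 with SNHG6.

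**Figure D1:**
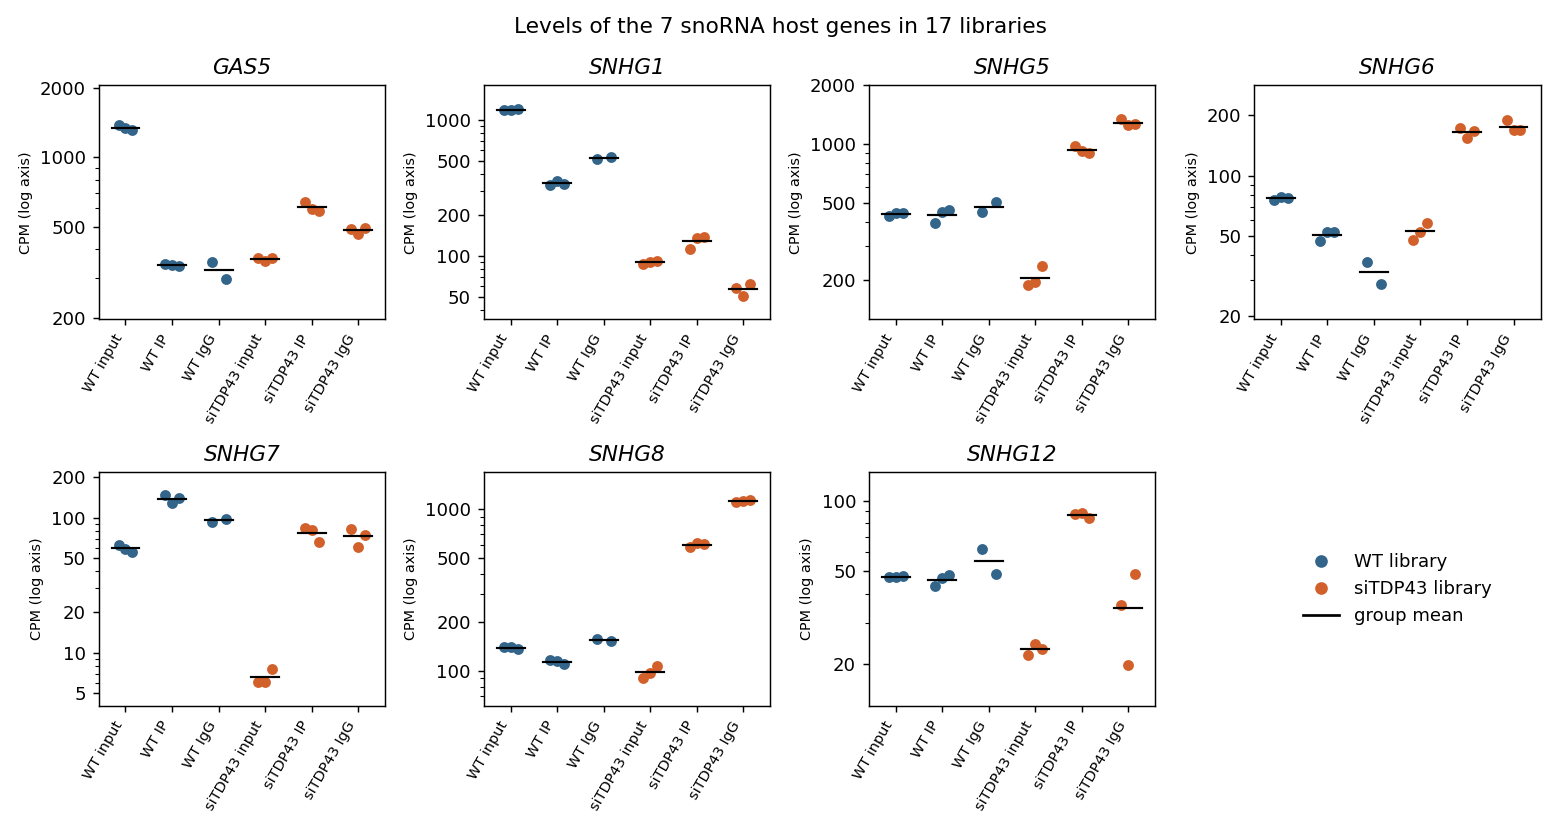
CPM (log axis) of the 7 snoRNA host genes in each of the 17 libraries, by group, where points are libraries and black lines are group means. GAS5 and SNHG1 were highest in WT input, whereas SNHG5, SNHG6 and SNHG8 were highest in the siTDP43 pull-downs with either antibody.

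The inputs asked how the abundance of the host transcripts differed after TDP43 depletion. All 7 members were lower in siTDP43 input than in WT input, with no overlap between the groups, while 40.6% of the 14036 genes tested were lower and 38.6% higher at the same threshold (edgeR adjusted p below 0.05). The share of all genes without overlap was not taken, so the separation alone does not set the members apart. SNHG1, host of a group of box C/D snoRNAs, fell most, SNHG7 and GAS5 followed, and SNHG6 and SNHG8 fell least. The median log2 change was −1.08 over the 7 members and −0.05 over all genes tested.

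SNHG1 measured 1180, 1173 and 1196 CPM in the WT inputs and 87.1, 90.1 and 90.7 CPM in the siTDP43 inputs. Its level in siTDP43 input was 7.57% of that in WT, a log2 change of −3.72 ± 0.04 (SE; edgeR adjusted p = 1.37e-34). SNHG1 stood at the 1.88 percentile of all log2 changes, counted from the largest fall.

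SNHG7 measured 62.9, 59.1 and 55.7 CPM in WT and 6.06, 6.02 and 7.59 CPM in siTDP43 input, which rests on 152 to 214 counts per siTDP43 library. The log2 change was −3.17 ± 0.09 (SE; edgeR adjusted p = 2.82e-24). Every siTDP43 input lay well below every WT input.

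GAS5, the growth-arrest transcript, measured 1379, 1344 and 1315 CPM in WT and 366, 353 and 367 CPM in siTDP43 input. It retained 27.0% of its WT level (log2 change −1.89 ± 0.04, SE; edgeR adjusted p = 3.41e-28), at the 9.11 percentile of all genes.

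SNHG5 and SNHG12 fell to 47.3% and 49.3% of their WT levels, at the 20.3 and 21.6 percentile of all genes. SNHG5 went from 428, 445 and 443 CPM to 189, 196 and 236 CPM (log2 change −1.08 ± 0.05). SNHG12 went from 46.9, 47.3 and 47.4 CPM to 22.0, 24.4 and 23.3 CPM (−1.02 ± 0.07).

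The remaining members fell by less than 2-fold. SNHG6 went from 75.6, 78.1 and 77.6 CPM to 47.5, 52.4 and 58.3 CPM (−0.55 ± 0.06; edgeR adjusted p = 1.49e-09). SNHG8 went from 141, 140 and 136 CPM to 90.9, 97.4 and 107 CPM (−0.49 ± 0.05; edgeR adjusted p = 2.88e-10). Both changes were near that of TARDBP itself (−0.57 ± 0.05). Counted from the largest fall, SNHG6 stood at the 33.4 percentile of all genes, SNHG8 at the 35.1 and TARDBP at the 32.5, so changes of this size were common.

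**Figure D2:**
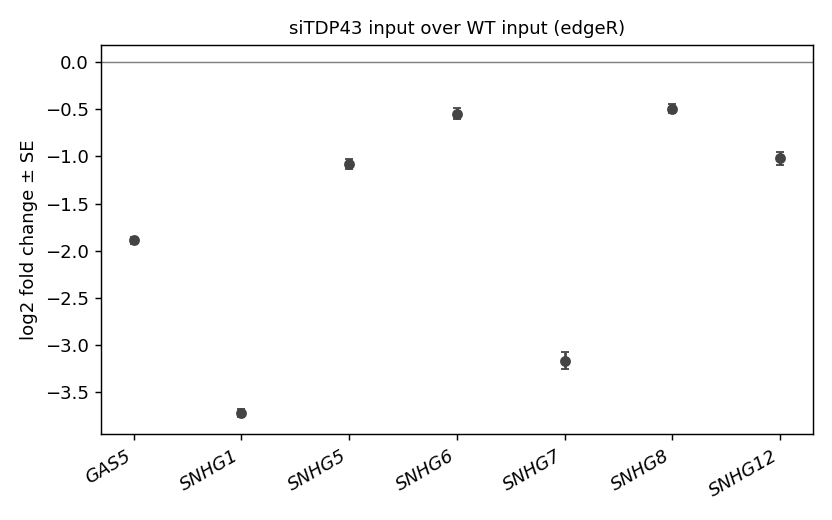
Log2 fold change of each host gene in siTDP43 input over WT input, from edgeR with 3 libraries a group, where bars are standard errors and the line marks no change. The 7 values ran from −3.72 for SNHG1 to −0.49 for SNHG8, all below 0.

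Other genes of the same pathway moved in both directions in the inputs, where 40.6% of all genes tested were lower and 38.6% higher. Of 11 other noncoding snoRNA hosts tested, 8 were lower and 3 higher (median log2 change −1.39). Of 136 other genes that hold a snoRNA row inside their span, some of those 11 included, 69 were lower and 57 higher (median −0.20). Among those with a mean of at least 100 counts, the 2 largest falls were those of RPS2, a small ribosomal subunit protein (−3.28), and GLTSCR2 (−3.17), and the 2 largest rises those of SF3B3, a splicing factor (1.91), and EIF4G2, a translation initiation factor (1.90). Among the proteins that bind box C/D snoRNAs, 3 of 4 were lower and none higher (median −0.48), and the 4 proteins of box H/ACA particles divided evenly, 2 higher and 2 lower (median 0.24). Of 9 factors that assemble these particles, 4 were higher and 4 lower (median 0.02). Of 15 nonsense-mediated decay factors, the pathway that removes several of these host transcripts, 10 were lower and 4 higher (median −0.33).

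The ratio of intronic snoRNA rows to host exons was higher in siTDP43 input for most members and for most other hosts. In the inputs, the intronic snoRNA rows together took more counts per 100 host exon counts in siTDP43 than in WT for 5 of the 6 members with such rows, with no overlap between groups. Among 48 other hosts with at least 50 such counts over the 6 inputs together, 64.6% did so. A host could reach that minimum mainly through its siTDP43 counts, which limits this share. From the other noncoding hosts tested above, ZNFX1-AS1 (41.8-fold), SNHG15 (11.7-fold), SNHG11 (4.33-fold) and DANCR (4.27-fold) were among them, and C17orf76-AS1 (1.63-fold) overlapped. ZNFX1-AS1 had 83 snoRNA counts over the 6 inputs and SNHG11 had 80. The mean WT ratio of ZNFX1-AS1 was near 0 (0.0155 per 100 host counts), so its fold rests on very few WT counts. The median change of this ratio was 2.07 on the log2 scale over the 6 members and 0.99 over the 48 other hosts. Host exon counts are the denominator, so the fall of the members in siTDP43 input is part of these values and they are not separate from it. The ratio is taken within a library and does not depend on the scaling between libraries.

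GAS5 had 10 intronic snoRNA rows. They held 2.18, 1.92 and 1.81 counts per 100 GAS5 counts in the WT inputs and 10.1, 10.2 and 11.5 in the siTDP43 inputs, a 5.38-fold difference. The raw row counts overlapped (837 to 1012 in WT and 908 to 1190 in siTDP43), while the raw exon counts of the host did not. These counts are not scaled for depth, which was 27718784 to 36583436 in the WT inputs and 24542434 to 31030950 in the siTDP43 inputs. With scaling, several single GAS5 rows were called higher in siTDP43, as given below.

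For SNHG1, with 8 rows, the ratio was 0.880, 0.798 and 0.993 in WT and 5.07, 5.32 and 5.08 in siTDP43, a 5.79-fold difference. For SNHG12, with 4 rows, it was 9.37, 6.77 and 5.95 in WT and 39.3, 33.5 and 39.6 in siTDP43 (5.09-fold). SNHG5 (0.199 to 0.309 in WT and 0.501 to 1.43 in siTDP43) and SNHG8 (0.254 to 0.523 and 0.555 to 1.16) were also higher in siTDP43, on far fewer counts. SNHG6, with a single row, overlapped between the groups (0.771 to 1.37 and 1.03 to 1.51).

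An exact two-sided permutation test over 3 against 3 inputs gave p = 0.1 for each of the 5 separated members, the smallest it can give, and p = 0.8 for SNHG6 (Benjamini-Hochberg over the 6 members, 0.12 and 0.8). Mature snoRNAs have no poly(A) tail, and whether the counts in these rows came from snoRNA, excised intron or unspliced host cannot be told apart.

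**Figure D3:**
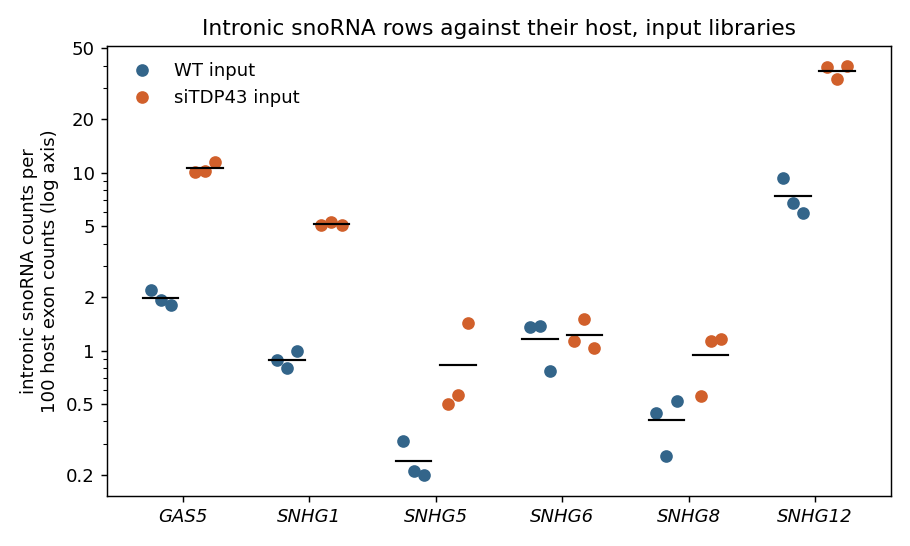
Counts in intronic snoRNA rows per 100 exon counts of the host (log axis) in the 3 WT and 3 siTDP43 input libraries, where points are libraries and black lines are means. The groups were separated for GAS5, SNHG1, SNHG5, SNHG8 and SNHG12 and overlapped for SNHG6.

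Single snoRNA rows, fitted with all genes, went both ways, and several were not called at an adjusted p below 0.05. Of all genes tested, 38.6% were higher and 40.6% lower. In GAS5, SNORD80 (493, 619 and 506 counts in WT and 680, 533 and 710 in siTDP43 input) rose by 0.55 ± 0.09 on the log2 scale (edgeR adjusted p = 3.49e-06) while its host fell by 1.89. SNORD44, SNORD77 and SNORD78, also from GAS5, rose by 0.91, 2.03 and 2.02 on the log2 scale. The other GAS5 rows tested were not called: SNORD74 (0.84), SNORD47 (0.37), SNORD79 (0.35), SNORD76 (0.22) and SNORD81 (−0.34). In SNHG12, SNORA61 (99, 98 and 88 counts in WT and 155, 142 and 177 in siTDP43) rose by 1.03 ± 0.19, and SNORD99 by 2.82 ± 0.35. SNORD50B in SNHG5 had a log2 change of 0.99 ± 0.44 (edgeR adjusted p = 0.0407), but its counts were 31, 24 and 25 in WT and 22, 22 and 86 in siTDP43, so only siTDP43 input replicate 3 exceeded the WT counts. In SNHG1 the rows that changed fell: SNORD25 (87, 136 and 162 counts in WT and 27, 29 and 21 in siTDP43) by 2.00, SNORD22 by 1.90 and SNORD28 by 1.02, each by less than the host fell. SNORD29 (−0.54), SNORD27 (−0.49), SNORD31 (−0.25) and SNORD26 (−0.24) in SNHG1 were not called. Neither were SNORD87 in SNHG6 (−0.48) and SNORA24 in SNHG8 (0.75).

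The WT pull-down asked whether host transcripts were enriched by the anti-ac4C antibody. Against WT input, 1 of 7 members was higher in WT IP (adjusted p below 0.05 and more than 2-fold; 30.2% of 14751 genes tested) and 2 were lower (27.3%). SNHG7 measured 62.9, 59.1 and 55.7 CPM in input and 146, 129 and 140 CPM in IP (log2 change 1.23 ± 0.06, SE; edgeR adjusted p = 8.54e-15). With a trend on exon GC content removed, its log2 change was 0.88, under 2-fold. GAS5 was lower, at 345, 339 and 339 CPM in IP (−1.97 ± 0.05; edgeR adjusted p = 2.42e-20), as was SNHG1, at 330, 353 and 337 CPM (−1.79 ± 0.05; edgeR adjusted p = 1.08e-20). The other members differed by less than 2-fold: SNHG6 by −0.60, SNHG8 by −0.28, SNHG12 by −0.03 and SNHG5 by −0.01, and of these SNHG5, SNHG6 and SNHG12 changed sign under other settings.

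The control antibody was compared with the same inputs. Against WT input, no member was higher in WT IgG (24.4% of genes) and 3 were lower (36.6%). These were GAS5 (351 and 296 CPM, log2 change −2.03 ± 0.06), SNHG6 (37.2 and 28.7 CPM, log2 change −1.20 ± 0.10) and SNHG1 (509 and 533 CPM, log2 change −1.16 ± 0.05), and with the GC trend removed GAS5 alone stayed past 2-fold. SNHG7 was at 93.0 and 97.6 CPM in IgG, above every input but not 2-fold (0.71 ± 0.08).

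Set directly against IgG, no member differed by more than 2-fold in WT IP, where 35.2% of genes were higher and 17.8% lower, by edgeR, and DESeq2 also called none. At an adjusted p below 0.05 alone, SNHG6 (0.60 ± 0.10) and SNHG7 (0.52 ± 0.08) were above IgG and SNHG1 (−0.64 ± 0.05), SNHG8 (−0.47 ± 0.06), SNHG12 (−0.29 ± 0.10) and SNHG5 (−0.16 ± 0.06) below it. GAS5 differed by 0.06 ± 0.06, with overlapping groups, and the IP and IgG libraries of SNHG5 overlapped as well. The direction for SNHG5 turned with the GC trend removed (0.30), and SNHG6 then passed 2-fold (1.02). The WT IgG group had 2 libraries, which limits its precision.

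In the siTDP43 cells the pull-down over input was different. 5 of 7 members were higher in siTDP43 IP than in siTDP43 input (26.8% of 12746 genes tested were higher and 25.4% lower), and none was lower. The members' median was 2.06 and that of all genes tested −0.09 on the log2 scale, and scaling by total counts moved both, to 1.72 and −0.43.

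SNHG7 measured 6.06, 6.02 and 7.59 CPM in siTDP43 input and 83.5, 80.6 and 65.9 CPM in IP (3.70 ± 0.14; edgeR adjusted p = 3.36e-16). SNHG8 measured 90.9, 97.4 and 107 CPM in input and 582, 619 and 610 CPM in IP (2.77 ± 0.07). SNHG5 measured 189, 196 and 236 CPM in input and 974, 916 and 897 CPM in IP (2.32 ± 0.07). In all 3 genes each IP library was several-fold above each input library. SNHG12 rose from 22.0, 24.4 and 23.3 CPM to 87.4, 88.5 and 84.5 CPM (2.06 ± 0.15), and SNHG6 from 47.5, 52.4 and 58.3 CPM to 172, 154 and 166 CPM (1.79 ± 0.09). GAS5 (642, 595 and 585 CPM in IP, log2 change 0.90 ± 0.06) and SNHG1 (112, 134 and 136 CPM in IP, log2 change 0.67 ± 0.09) were also above their inputs without passing 2-fold, and with the GC trend removed both passed it (1.24 and 1.07).

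Several of these transcripts were also raised with the control antibody. Against input, 4 members were higher in siTDP43 IgG (24.7% of genes) and none lower (41%). SNHG8 reached 1107, 1127 and 1136 CPM in IgG, 13.3-fold its input and above its IP (3.74 ± 0.07). SNHG7 was at 82.6, 61.1 and 74.0 CPM (3.70 ± 0.15), overlapping with its IP. SNHG5 was at 1339, 1250 and 1266 CPM (2.86 ± 0.07), above its IP, and SNHG6 at 189, 168 and 169 CPM (1.96 ± 0.10). GAS5 differed by 0.64 ± 0.06, SNHG1 by −0.42 ± 0.11 and SNHG12 by 0.82 ± 0.18, none past 2-fold. GAS5 passed it with the GC trend removed (1.09), and SNHG12 without siTDP43 IgG replicate 2 (1.07).

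Against IgG, 2 members were higher in siTDP43 IP (34% of genes) and none lower past 2-fold (15%). SNHG1 measured 112, 134 and 136 CPM in IP and 58.0, 51.0 and 61.9 CPM in IgG (1.09 ± 0.11; edgeR adjusted p = 2.70e-08), and 0.91 with the GC trend removed. SNHG12 measured 87.4, 88.5 and 84.5 CPM in IP and 35.6, 19.8 and 48.4 CPM in IgG (1.24 ± 0.18; edgeR adjusted p = 2.26e-06), on 49 to 136 IgG counts. Without siTDP43 IgG replicate 2, its lowest library, SNHG12 fell under 2-fold (0.98). SNHG8 was lower in IP than in IgG by just under 2-fold (−0.97 ± 0.07), and past it (−1.01) with a filter of a mean of at least 50 counts, and SNHG5 was lower by less (−0.54 ± 0.07). GAS5 was slightly above IgG (0.26 ± 0.06), and SNHG6 (−0.17 ± 0.09) and SNHG7 (0.01 ± 0.14) overlapped with it.

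**Figure D4:**
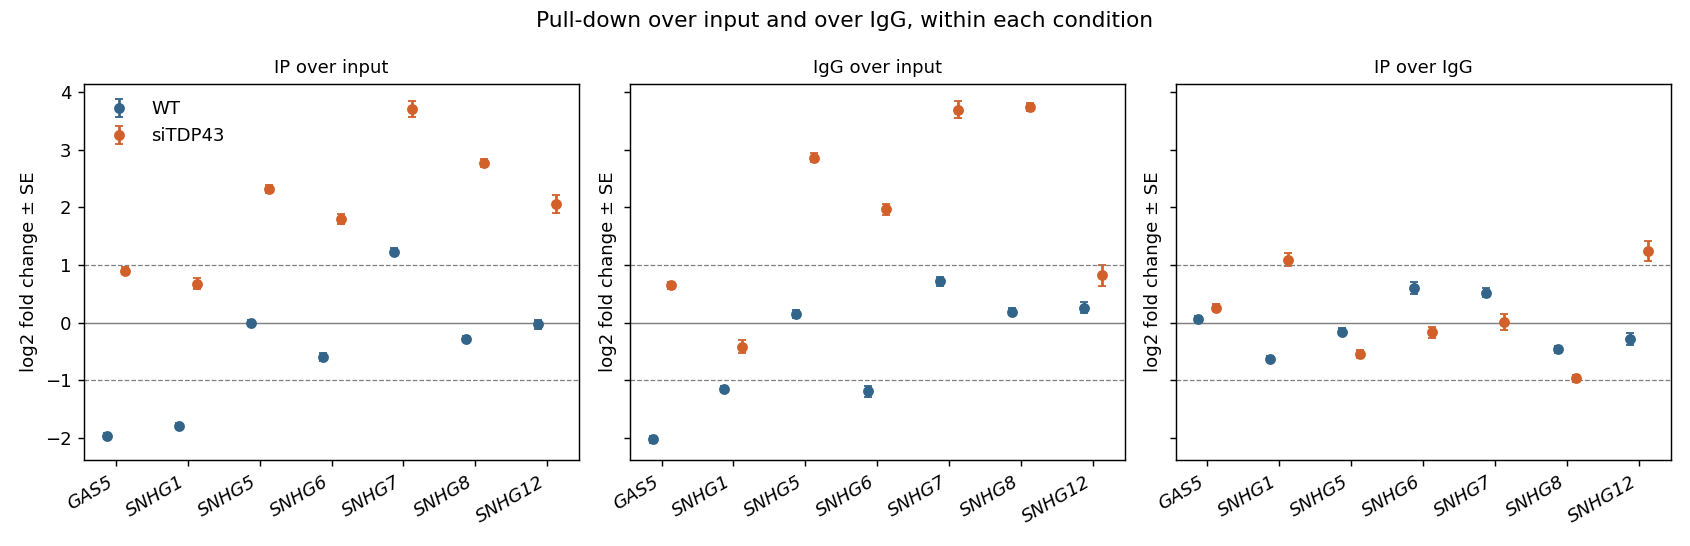
Log2 fold change of IP over input, IgG over input and IP over IgG for each host gene, WT in blue and siTDP43 in orange, where bars are edgeR standard errors and dashed lines mark 2-fold. SNHG5, SNHG6, SNHG7 and SNHG8 in siTDP43 were raised over input with either antibody and lay at or below 0.01 for IP over IgG.

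A transcript was called ac4C(+) when its IP was above both input and IgG by more than 2-fold at an adjusted p below 0.05. None of the 7 members was ac4C(+) in WT by edgeR (15.6% of genes) or by DESeq2, and 1, SNHG12, was in siTDP43 (10.3%). That call needs siTDP43 IgG replicate 2, as above, and was lost when the fold over IgG had to exceed 5. SNHG7 in WT was above input but not 2-fold above IgG, and SNHG1 in siTDP43 was above IgG but not 2-fold above input.

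The change of each ratio between conditions was tested as an interaction in a fit of all 17 libraries. For IP over input, all 7 members were higher in siTDP43 than in WT (31.5% of 15165 genes were higher and 36.3% lower). The values ran from 1.94 ± 0.17 for SNHG12 to 2.90 ± 0.09 for SNHG8, between the 89.7 and 95.0 percentile of all genes. GAS5 changed by 2.73 ± 0.08, from a ratio below 1 in WT to a ratio above 1 in siTDP43. The inputs enter both this contrast and the comparison of inputs, so the fall in siTDP43 input is part of these values.

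For IP over IgG, which does not use the inputs, the members divided: 3 were higher in siTDP43 (34.9% of genes) and 4 lower (25.9%). SNHG1 changed by 1.77 ± 0.11 (edgeR adjusted p = 1.63e-16) and SNHG12 by 1.58 ± 0.21 (1.94e-08). GAS5 changed by 0.25 ± 0.09 (edgeR adjusted p = 0.0129). This was lost in DESeq2 (0.03), without WT IgG replicate 1 (0.12), and turned with the GC trend removed (−0.05). SNHG6 changed by −0.71 ± 0.14, SNHG7 by −0.46 ± 0.16, SNHG8 by −0.45 ± 0.09 and SNHG5 by −0.33 ± 0.10. The call for SNHG7 was lost without siTDP43 IgG replicate 1 (−0.35) and with the GC trend removed (0.01), and that for SNHG5 without WT IgG replicate 1 (−0.26). The members' median was −0.33 and that of all genes 0.24, and in DESeq2 the latter was −0.13 and the former −0.55.

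The letters TGTGCG, a UG-rich sequence bound by TDP43, were searched on the transcript strand of the merged exons. Of the 7 members, SNHG7 alone held them, at 1 place, printed here with 12 bases on both sides and the match in capitals:
SNHG7, chr9:139620369-139620398 (minus): ggttaccaggagTGTGCGtctcactcccag
TGTGCG occurred in 31.0% of the 14036 genes tested in the inputs. Among the 1867 genes with 472 to 1500 exonic bases the share was 15.8%. That range holds the other 6 members, all without the letters, and leaves out SNHG7 with its 2676 bases. So few genes cannot be told apart from either share. A match is a run of letters and not a measured site.

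Over the 17 libraries the members did not share 1 profile. Pearson's r between log2 CPM profiles was 0.93 for SNHG5 and SNHG8, 0.89 for SNHG6 and SNHG8 and 0.80 for SNHG5 and SNHG6, while SNHG1 and SNHG8 had −0.58 and GAS5 and SNHG1 0.49. Among 10134 genes outside the group, those closest to the mean standardised profile of the members included SLC25A33 (r = 0.95), C1orf50 (0.94), UBE2D2 (0.94) and SLC30A5 (0.93). The 17 libraries share 6 groups, so these are descriptions and carry no test.

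Some values could hold reads of a neighbour or lack reads shared with it. Whether counting used the strand, and how shared reads were treated, is not stated in the sources used here. An antisense gene overlaps the exons of GAS5 by 41 bases, of SNHG6 by 119, of SNHG7 by 125 and of SNHG12 by 8. In GENCODE a protein-coding gene on the same strand overlaps the exons of SNHG5 by 241 of 507 bases, and counting by strand would not separate their reads. SNORA17 and SNORA43 lie inside exons of SNHG7 on the same strand and were at 0 in all 17 libraries, while SNHG7 held 21520 counts in total. Since the treatment of shared reads is not known, these 0 values do not show that the snoRNAs were absent.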

How the data were processed

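The members and gene lists were chosen with earlier results of these data known. The authors deposited a table of raw counts per gene for 17 libraries. Per the study's methods and the labels, poly(A) RNA was pulled down and amplified by Smart-seq2, and paired reads were trimmed with Trim Galore 0.6.7, mapped with STAR 2.7.10a to hg19 and counted with featureCounts 2.0.2 on uniquely mapped reads. The labels name mm10, but the exons of the table fit GRCh37: 84 of 90 exon ends of the members are exon ends in GENCODE lift37, and 0 exons pass a chromosome end. IP and IgG RNA was amplified without a stated equal amount, so levels are relative within a library.

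Genes were filtered with filterByExpr (minimum count 10), scaled by TMM and tested with edgeR 4.0.16 quasi-likelihood F tests in R 4.3.3, with Benjamini-Hochberg adjustment over all genes of a fit: the 6 inputs, the WT libraries, the siTDP43 libraries, or all 17 for the interactions. A call needed an adjusted p below 0.05 and, within a condition, more than 2-fold. CPM values use TMM-scaled totals. The tests were run on simulated counts with known changes first. Alternatives were DESeq2 1.42.0 (Wald test, or its size factors), total count scaling, no filter, a mean of at least 50 counts, a replicate block, halved counts (mates may have been counted singly), a GC trend removed, limma 3.58.1 on log2(FPKM + 1), 1 fit of all 17 libraries and leaving out each library. Among small nonzero counts, 81.3% to 95.9% were even in each library. A fragment may thus have added 2 counts, and the counts given here may stand for fewer fragments. Replicates differed by a chi-square per degree of freedom of 3.26 to 9.43, and none were merged. That value takes the counts as independent, so counting both mates would raise it above true sampling noise. Named were the members, TARDBP, snoRNA rows inside members, the 2 largest rises and falls among other hosts, and the 5 genes closest in profile to the members, of which 1 is not reported here. The comparison of snoRNA rows with host exons was added after the data were seen, used rows that touch no exon of any gene, and was computed in Python 3.11.15.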

Additional observations from a re-analysis of the deposited data

Results flagged for a closer look

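The 14 results given here are those in which the effect of the pull-down differed between the conditions by a test of the difference itself, the interaction in the edgeR fit of all 17 libraries; every value is siTDP43 minus WT on the log2 scale. For IP over input the values were 2.73 for GAS5, 2.31 for SNHG1, 2.19 for SNHG5, 2.25 for SNHG6, 2.33 for SNHG7, 2.90 for SNHG8 and 1.94 for SNHG12. For IP over IgG they were 0.25 for GAS5, 1.77 for SNHG1, −0.33 for SNHG5, −0.71 for SNHG6, −0.46 for SNHG7, −0.45 for SNHG8 and 1.58 for SNHG12. Both sets share the IP libraries. SNHG5, SNHG6, SNHG7 and SNHG8 were higher over input and lower over IgG, and SNHG1, SNHG12 and GAS5 were higher over both. Condition, transfection and batch cannot be told apart in any of them.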

How the results depend on the processing

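All 7 falls in siTDP43 input and all 7 rises of IP over input between conditions kept direction and threshold under every alternative run. Counts of members moved mainly when a trend on exon GC content was removed: WT IP over input had 0 higher (1 before), WT IP over IgG 1 higher (0 before), WT IgG over input 1 lower (3 before) and siTDP43 IP over IgG 1 higher (2 before). The last count ranged from 1 to 2 when single libraries were left out (1 without siTDP43 IgG replicate 2). With a mean of at least 50 counts, siTDP43 IP over IgG had 1 member lower (0 before), and with a fold over IgG above 5 there was no ac4C(+) member (0 against 1) in siTDP43. Directions that turned were those of values near 0 or with the GC trend removed. For WT IP over input, SNHG5 was 0.0926 with total count scaling, 0.0557 with the mean filter, 0.00195 with halved counts, 0.678 with the GC trend removed and 0.0907 in limma, and −0.0486 to 0.0564 with single libraries left out. SNHG12 was 0.0717, 0.0343 and 0.0701 with total count scaling, the mean filter and limma, and −0.0586 to 0.0139 with single libraries left out, and SNHG6 was 0.0458 with the GC trend removed. For WT IP over IgG, GAS5 ran from −0.0552 to 0.185 with single libraries left out, and SNHG5 was 0.30 with the GC trend removed. For siTDP43 IP over IgG, SNHG6 was 0.0418 with total count scaling and 0.0434 in limma. SNHG7 was −0.0150 in DESeq2 and −0.0147 with its size factors, −0.0375 with the mean filter, −0.00270 with halved counts and −0.0974 to 0.111 with single libraries left out. With the GC trend removed, SNHG1 in siTDP43 IgG over input was 0.17, and the changes of IP over IgG were −0.0494 for GAS5 and 0.00766 for SNHG7. The cause of these moves was not tested. In all, 1228 member values under alternatives stayed the same, 10 lost and 6 gained the threshold and 25 turned. Same-numbered libraries did not deviate together (r −0.02 to 0.07), and a replicate block changed no count of members: all 7 (7 before) remained lower in siTDP43 input. Where 1 WT IgG library was left out, the lone library was assumed to vary like the other groups. Counts were lowest for SNHG12 (49 to 136) in siTDP43 IgG, which limits its values most there.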

Other observations

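The ratio of intronic snoRNA rows to GAS5 exons also differed between the pull-downs, as a description with no test. Per 100 GAS5 counts, these rows held 2.03 to 2.78 counts in WT IP, 8.77 and 10.5 in WT IgG, 2.22 to 3.63 in siTDP43 IP and 0.751 to 1.52 in siTDP43 IgG, the last on 10 to 21 counts per library. SNORD44 was at 0 counts in all 11 pull-down libraries, against 29 to 37 counts in the WT inputs and 37 to 64 in the siTDP43 inputs. SNORD25 was likewise at 0 in all 11 pull-downs, with 87 to 162 counts in the WT inputs. Not every row was lower in the pull-downs. In WT IP, SNORD81 (log2 change 1.10) and SNORA44 (1.72) were called above input by edgeR, and most rows called there were below it. In siTDP43 IP, SNORD50A (3.24), SNORD50B (2.09), SNORD78 (1.41) and SNORD99 (1.05) were above input. SNORD44, SNORD76, SNORD77, SNORD79, SNORD80 and SNORA61 were below it. SNORD80 held 232 and 153 counts in the WT IgG libraries and 0 in each of the 3 siTDP43 IgG libraries (9466855 and 9022250 total counts in the former, 3013989 to 3436811 in the latter).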
